A study of Rattus norvegicus with 4 samples.

Results

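The microRNAs described here are the mature arms cut from the hairpins of 2 related gene clusters of the rat, the miR-23a, miR-27a and miR-24-2 cluster on chromosome 19 and the miR-23b, miR-27b and miR-24-1 cluster on chromosome 17. They were chosen by name and number 7 of the 758 mature rat miRNAs on the array: rno-miR-23a-3p, rno-miR-23b-3p, rno-miR-27a-3p, rno-miR-27b-3p, rno-miR-24-3p, rno-miR-24-1-5p and rno-miR-24-2-5p, written below without the species prefix. Their signals were read in extracellular vesicles, small membrane-wrapped packets shed by cells, on 4 Agilent miRNA arrays for the rat, each hybridised with 1 Cy3-labelled sample. All rats were male wild-type Sprague-Dawley animals, obtained at 6 weeks of age and operated at 8 weeks, and marrow was taken 8 weeks after surgery. Marrow cells sorted for CD45 and CD11b were grown in medium with fetal bovine serum and 20 ng/mL M-CSF to day 7, which gave the M0 state. Sham-operated rats gave the M0 macrophages whose vesicles make up the M0_sham group (n = 2 arrays). In the M1_OA group (n = 2 arrays) the macrophages came from rats with surgical knee osteoarthritis (OA), produced in the right knee by destabilising the medial meniscus and transecting the anterior cruciate ligament. These cells were taken to the inflammatory M1 state with 100 ng/mL LPS and 20 ng/mL IFN-γ for 48 hours and then received 5 mM ATP for 60 minutes. The groups differ in surgery, polarisation and ATP at once, so there is 1 contrast, and the series uses cultured marrow cells to stand for the macrophages of the inflamed joint lining. The labels do not say whether the replicates of a group are separate animals or cultures, and p-values therefore measure only the spread between arrays, which may be technical.

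A miRNA hairpin is cut into a duplex whose strands are called the 5p and the 3p arm. One strand, the guide, is loaded into an Argonaute protein and pairs with messenger RNAs mainly through its seed, and the other, the passenger, is mostly degraded. In both clusters the 3p arms are the guides. Each cluster is transcribed as 1 primary RNA in mammals, so its hairpins start out in equal numbers, and later processing and decay set the level of each mature arm. The guides have known targets in human and mouse cells: miR-23 represses glutaminase, the enzyme that feeds glutamine into metabolism, miR-27 represses PPARγ, a lipid-sensing transcription factor, and miR-24 represses cell-cycle genes. In human cartilage cells, miR-27b represses the collagen-cutting enzyme MMP13.

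The mature sequences are printed because they decide which arms an array can tell apart. All 7 were found in RefSeq (rat build GRCr8). They are written 5′ to 3′ with the seed, bases 2 to 8, in capitals.

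miR-23a-3p: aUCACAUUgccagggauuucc
miR-23b-3p: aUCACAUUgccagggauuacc
miR-27a-3p: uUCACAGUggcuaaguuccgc
miR-27b-3p: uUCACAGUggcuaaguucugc
miR-24-3p: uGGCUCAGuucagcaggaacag
miR-24-1-5p: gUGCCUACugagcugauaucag
miR-24-2-5p: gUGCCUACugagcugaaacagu

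The 7 arms carry 4 different seeds. miR-23a-3p and miR-23b-3p share 1 seed and differ by the single substitution U19A, with positions counted from 1 at the 5′ end of the mature arm and the miR-23a base given first. miR-27a-3p and miR-27b-3p likewise share a seed and differ by C19U. The passengers miR-24-1-5p and miR-24-2-5p share their first 16 bases and differ at 5 positions after them. miR-24-3p has the same sequence in both clusters, so its signal cannot be assigned to either.

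In GRCr8 both clusters lie on the minus strand. The hairpin Mir23a lies at chr19:40859769-40859843, Mir27a at chr19:40859603-40859689 and Mir24-2 at chr19:40859455-40859562, so that 389 bases hold all 3. Mir23b lies at chr17:1819386-1819482, Mir27b at chr17:1819147-1819243 and Mir24-1 at chr17:1818669-1818736, over 814 bases. The gaps between neighbouring hairpins are 79 and 40 bases in the 23a cluster and 142 and 410 bases in the 23b cluster.

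**Figure D1:**
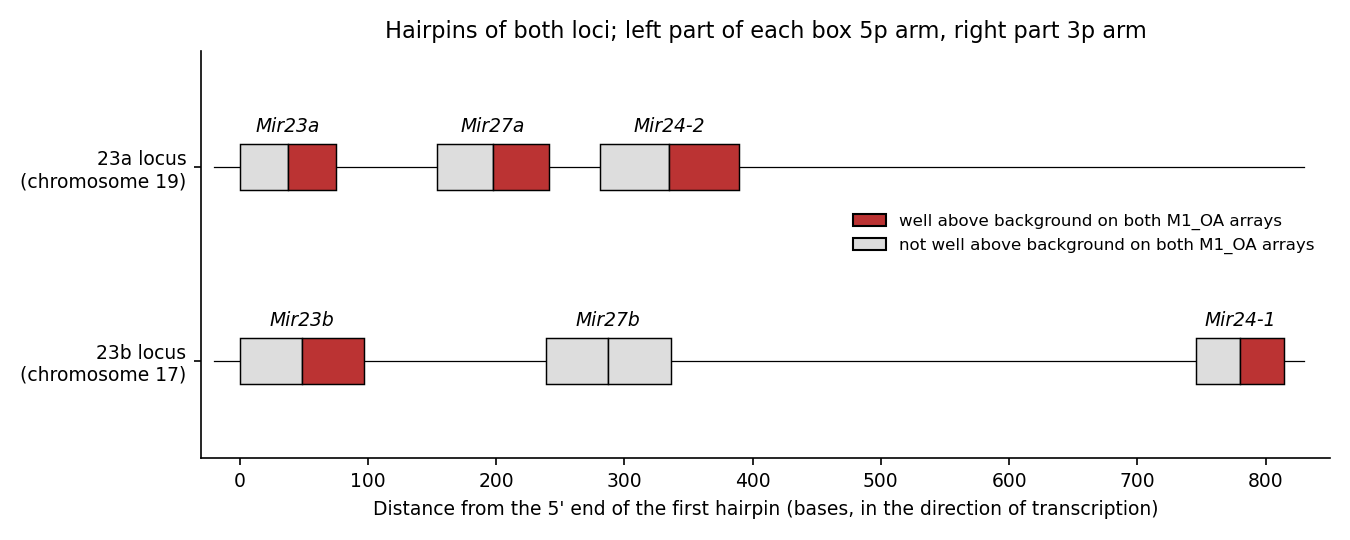
Hairpins of both clusters drawn to scale along the direction of transcription, in bases from the 5′ end of the first hairpin. Red marks arms detected on both M1_OA arrays: the 3p arms of Mir23a, Mir27a and Mir23b, and the 3p arm that Mir24-1 and Mir24-2 share and that cannot be assigned to either.

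Each guide arm was measured by 2 probes of 8 spots each and each passenger among the 7 by 4 probes of 4 spots, which gives 16 spots per arm and array. A probe pairs with the 3′ part of its miRNA, so the base that separates the a and b forms lies near the probe's 5′ end. It is in capitals in the longer probes of the miR-23 arms and in the 17-base probes of the miR-27 arms.

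miR-23a-3p probe: ggAaatccctggcaatgt
miR-23b-3p probe: ggTaatccctggcaatgt
miR-27a-3p probe: gcGgaacttagccactg
miR-27b-3p probe: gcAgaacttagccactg

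The values are processed spot signals in arbitrary units, from which the scanner software had subtracted the background. The median spot lay below 0 on every array. Negative control spots averaged 4.41 and 4.85 in M0_sham (replicates 1 and 2) and 12.4 and 7.92 in M1_OA. Their SD was 2.18, 2.61, 10.5 and 6.43 in the same order, so a value somewhat above 0 is not by itself a signal. A probe's spots not marked as outliers were averaged, and the probes of an arm were summed. An arm counted as well above background (detected) when, for at least 1 of its probes, more than a share of 0.5 of the unmarked spots carried the scanner's flag of that name. The faintest signal of any miRNA well above background was 7.78 and 26.7 in M0_sham (replicates 1 and 2, an order kept throughout) and 16.9 and 14.6 in M1_OA. The number of miRNAs well above background was 23 and 13 in M0_sham and 42 and 45 in M1_OA. The M1_OA arrays were brighter at their upper end: over the 11 miRNAs detected on every array, the 75th percentile was 151 and 202 in M0_sham against 657 and 448 in M1_OA. Labelling spike-ins, RNA added in equal amount to each sample, ran the other way, at 759 and 912 in M0_sham and 609 and 535 in M1_OA. More vesicle RNA of a kind and more vesicles cannot be told apart in such samples. All 4 arrays were on 1 slide, the M0_sham arrays in row 1 and the M1_OA arrays in row 2. They were scanned in 2 sessions, 1 for each group. Slide row, session and group cannot be told apart. Of the myeloid markers, miR-223-3p was detected and miR-142-3p and miR-142-5p were not on any array. Over these 3 markers the summed signal was 23.2 and 16.6 in M0_sham and 61.0 and 43.7 in M1_OA (values below 0 counted as 0). Over 3 muscle markers it was 1.25 and 11.5 against 15.7 and 30.3, with 1 of the 3 detected on any array. Liver and serum, endothelial, stromal and lymphocyte markers summed to at most 6.79 with 0 detected, and erythroid markers stood at 0 on all arrays. The part of the myeloid and muscle markers in the results below was not tested.

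Of the 7 arms, 4 were detected on both M1_OA arrays and 0 on both M0_sham arrays. Among all 758 miRNAs the shares were 5.28% and 1.58%. The 4 were the guides miR-24-3p, miR-23b-3p, miR-23a-3p and miR-27a-3p. The guide miR-27b-3p and the 2 passengers were detected on none of the 4 arrays.

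The guide miR-23a-3p was the brightest of the arms. Its summed signal was 4.77 and 4.42 in M0_sham and 427 and 307 in M1_OA. Both M1_OA arrays were far above both M0_sham arrays, and all 16 of its spots were well above background on each of them. On M0_sham replicate 1 a single spot of the 16 was, and on replicate 2 there were 0. Its 2 probes differed in M0_sham vesicles. The 17-base probe averaged 0.0165 ± 1.55 (SD over 8 spots) and 0.231 ± 1.63. The 18-base probe averaged 4.75 ± 1.92 and 4.19 ± 2.80, with spots from 1.81 to 7.62 and from 0.734 to 8.61. Every one of its 8 spots on replicate 1 and 5 of 8 on replicate 2 were positive and significant by the scanner's less strict flag. This probe stood at the 96.6th and 95.8th percentile of the 1806 probes on the 2 arrays, respectively. Of the 17-base probe, 2 of 8 and 0 of 8 spots carried that flag, and it stood at the 82.6th and 90.6th percentile. On the M1_OA arrays the 17-base probe averaged 81.5 ± 3.98 and 56.9 ± 5.93, and the 18-base probe 346 ± 6.25 and 251 ± 16.9. Negative control spots averaged 4.41 ± 2.18 and 4.85 ± 2.61 (SD over spots) on the M0_sham arrays. In M0_sham vesicles the mean of neither miR-23a-3p probe thus lay above the spread of those controls. Most spots of the 18-base probe did carry the less strict flag, so whether a low level was present was not resolved. In M1_OA vesicles miR-23a-3p had a bright signal from both probes.

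Its partner miR-23b-3p, with the same seed, had summed signals of -3.16 and -5.84 in M0_sham and 72.5 and 48.4 in M1_OA. The groups do not overlap, and 0 of 16 spots on each M0_sham array were well above background against 10 and 9 on the M1_OA arrays. Most of those spots belong to the 18-base probe, whose 8 spots all passed on both M1_OA arrays, at 59.5 ± 2.13 and 39.6 ± 5.32. The 17-base probe read 13.0 ± 1.97 and 8.79 ± 3.52, with 2 and 1 of 8 spots well above background. These values lay near the means of the negative control spots on the M1_OA arrays, 12.4 and 7.92.

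miR-24-3p, the guide made by both clusters, had summed signals of -4.79 and -8.58 in M0_sham and 80.2 and 61.0 in M1_OA. No M0_sham spot was well above background, against 15 and 16 of 16 in M1_OA. On the M1_OA arrays the 17-base probe averaged 26.3 ± 2.37 and 19.6 ± 2.89 and the 18-base probe 53.9 ± 3.93 and 41.5 ± 2.71. Negative control spots averaged 12.4 ± 10.5 and 7.92 ± 6.43 (SD over spots) on the same arrays. The 18-base probe thus stood well clear of these controls, and the 17-base probe not far beyond their spread.

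miR-27a-3p was the faintest of the detected arms, with -1.64 and -4.56 in M0_sham and 32.2 and 20.4 in M1_OA. Its detection rests on 1 probe. All 8 spots of the 17-base probe were well above background on each M1_OA array, at 26.9 ± 5.58 and 19.0 ± 2.86. The 16-base probe averaged 5.33 ± 4.92 and 1.46 ± 2.52, with 0 of 8 spots well above background on either. The negative control spots averaged 12.4 ± 10.5 and 7.92 ± 6.43 (SD over spots) on the M1_OA arrays. The values of the 16-base probe lay under these means, and those of the 17-base probe not far beyond the controls' spread.

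Its partner miR-27b-3p had summed signals of -6.19 and -8.08 in M0_sham and -0.310 and -1.50 in M1_OA. The M1_OA values are the higher ones, but 0 of its 64 spots over the 4 arrays were well above background, and its probe means ran from -4.66 to 0.954. No level of miR-27b-3p was resolved in either group.

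The passengers were not resolved in either group. miR-24-1-5p had summed signals of -10.3 and -20.9 in M0_sham and -24.1 and -17.7 in M1_OA. miR-24-2-5p, the passenger from the 23a cluster, had -14.0 and -26.5 in M0_sham and -19.4 and -24.8 in M1_OA. The groups overlap for both, and 0 of their 128 spots were well above background. The array also holds the 5p arms of the other hairpins, miR-23a-5p, miR-23b-5p, miR-27a-5p and miR-27b-5p. Their 12 probes averaged between -6.98 and 2.38, and 1 of 256 spots was well above background, an outlier-marked spot of miR-23b-5p on M1_OA replicate 2. In M1_OA vesicles 4 of 5 guide arms and 0 of 6 5p arms were therefore detected. A 5p arm and a 3p arm are read by different probes, so no ratio of their amounts follows from these signals.

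**Figure D2:**
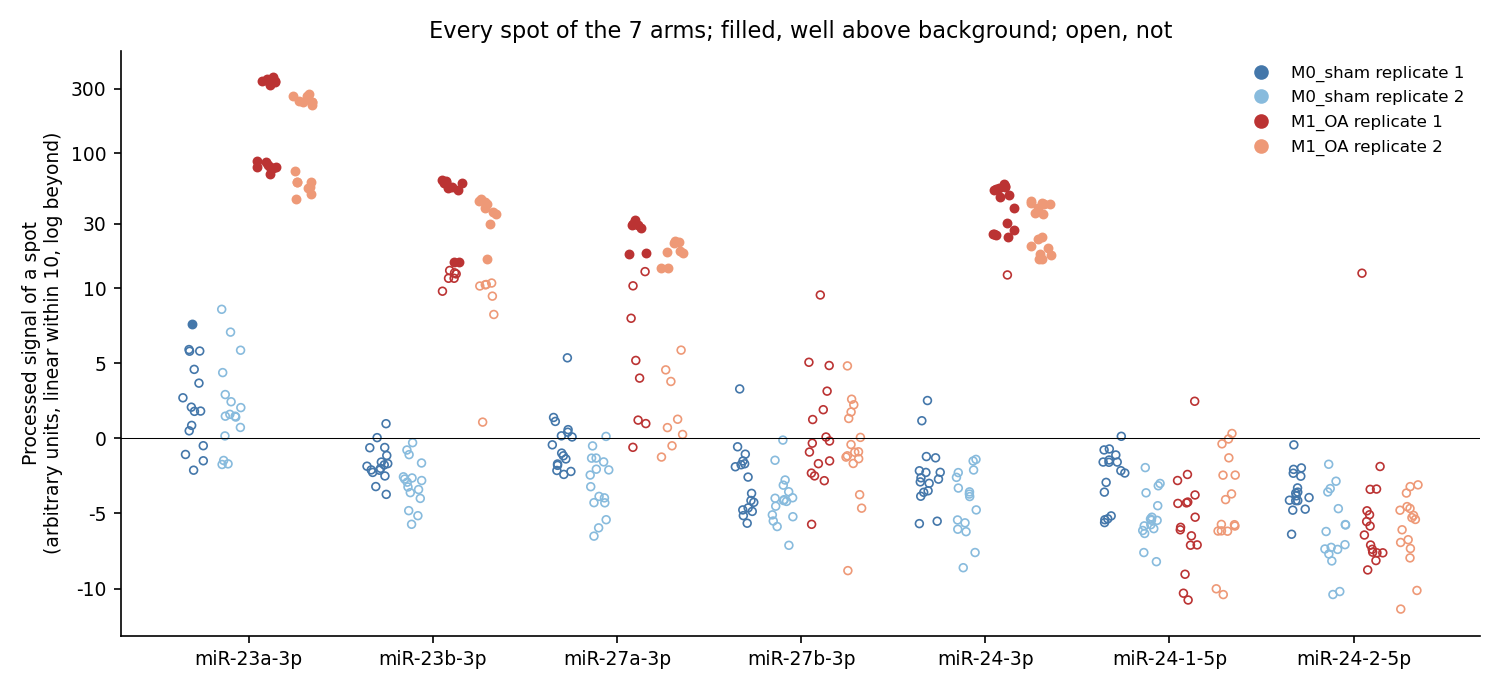
Processed signal of each of the 16 spots of the 7 arms on the 4 arrays, in arbitrary units, on an axis that is linear from -10 to 10 and logarithmic beyond; filled points were well above background and open points were not. The M1_OA spots of miR-23a-3p form 2 bands, 1 for each probe, above all M0_sham spots, while miR-27b-3p and both miR-24 passengers have open points only.

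The a and b forms were next set side by side. Levels of different probes are not amounts, and these shares describe brightness only. On M1_OA replicate 1 the 17-base probe of miR-23b-3p had 16.0% of the brightness of the 17-base probe of miR-23a-3p, and the 18-base probe 17.2%. On M1_OA replicate 2 the shares were 15.4% and 15.8%. The share was thus nearly the same for both probe lengths and both arrays. The step from the shorter to the longer probe was also alike, 4.24-fold and 4.40-fold for miR-23a-3p and 4.56-fold and 4.50-fold for miR-23b-3p. However, the 17-base probe of miR-23b-3p read 13.0 and 8.79, near the negative control means of 12.4 and 7.92. Only 2 and 1 of its 8 spots were well above background, so the shares and steps that use it are not resolved. The step was 2.05-fold and 2.12-fold for miR-24-3p. For miR-27a-3p, whose shorter probe was not well above background, it was 5.05-fold and 13.0-fold. The probes of the a and b forms differ by 1 base, and how much of one form binds the probe of the other was not tested. For the miR-27 pair the 17-base probes gave no such share: miR-27b-3p stood at -1.26 and -0.464 beside 26.9 and 19.0 for miR-27a-3p.

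The M1_OA replicates differed in overall brightness, and the arms differed with it. The unscaled signal on replicate 1 over that on replicate 2 was 1.39 for miR-23a-3p, 1.50 for miR-23b-3p, 1.31 for miR-24-3p and 1.58 for miR-27a-3p, beside 1.47 for the 75th percentile used to scale the arrays. After scaling the same ratios were 0.946, 1.02, 0.895 and 1.07.

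For the test, each array was scaled to that percentile, values under 7.90, the faintest scaled signal that counted as detected, were set to this floor, and log2 was taken. The test covered the 41 miRNAs that were well above background throughout at least 1 group. In it, limma called 4 of the 4 arms tested higher in M1_OA vesicles, where 53.7% of all tested miRNAs were called higher and 9.76% lower, at an adjusted p of 0.05. All 4 arms entered the test through the M1_OA arrays only, a filter that favours a rise. All but miR-23a-3p also lay at the floor on both M0_sham arrays and could not come out lower. Among other miRNAs detected in M1_OA only, miR-3593-3p (-0.52) and miR-3588 (-0.32) had fitted differences below 0. The count, median, fitted differences and p-values of the 4 arms are therefore a description and no support for a rise. The median log2 difference was 2.21 over the 4 arms, 0.62 over all 41 and 1.71 over the 24 miRNAs well above background in M1_OA only, which are 3.17% of the 758. The other 3 arms passed no filter and were not tested.

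The fitted log2 difference of miR-23a-3p was 4.55 ± 0.17 (SE; limma, adjusted p = 0.00102), with 1 of its 2 M0_sham values at the floor. Its lower bound, which puts each M0_sham array's detection limit in place of the dim signal, was at least 8.08-fold. Read by single probes the bound was at least 2.21-fold for the 17-base and at least 9.54-fold for the 18-base probe. Without scaling, 78% of the tested miRNAs and all 4 arms were called higher. There the fitted difference of miR-23a-3p was 5.54 (limma, adjusted p = 1.39e-04) and its bound over both probes at least 25.1-fold.

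miR-24-3p had a fitted difference of 2.33 ± 0.13 (limma, adjusted p = 0.0012), with a bound of at least 1.56-fold. By its 18-base probe alone it was at least 1.53-fold higher, while the 17-base probe gave a bound under 1 and so no fold. miR-23b-3p had a fitted difference of 2.09 ± 0.12 (limma, adjusted p = 0.0012), with a bound of at least 1.32-fold, or at least 1.57-fold by its 18-base probe. Both M0_sham values of these arms lay at the floor, so the differences are distances to it and their SE holds no spread of that group.

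miR-27a-3p, also at the floor on both M0_sham arrays, had a fitted difference of 0.88 ± 0.12 (limma, adjusted p = 0.00903), but its scaled bound was under 1, so no fold is given. Without scaling its fitted difference was 1.72 (limma, adjusted p = 0.0047), again a distance to the floor, and its bound was 1.78-fold. That bound could not have come out under 1. The M0_sham detection limits, 7.78 and 26.7, have a lower mean log2 than the faintest detected M1_OA signals, 16.9 and 14.6. Scaled bounds over 1 were found for 58.3% of the 24 miRNAs, and for all of the 4 arms but miR-27a-3p. All 24 had a bound over 1 without scaling, which was fixed in the same way for those under the detection limits in M0_sham.

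**Figure D3:**
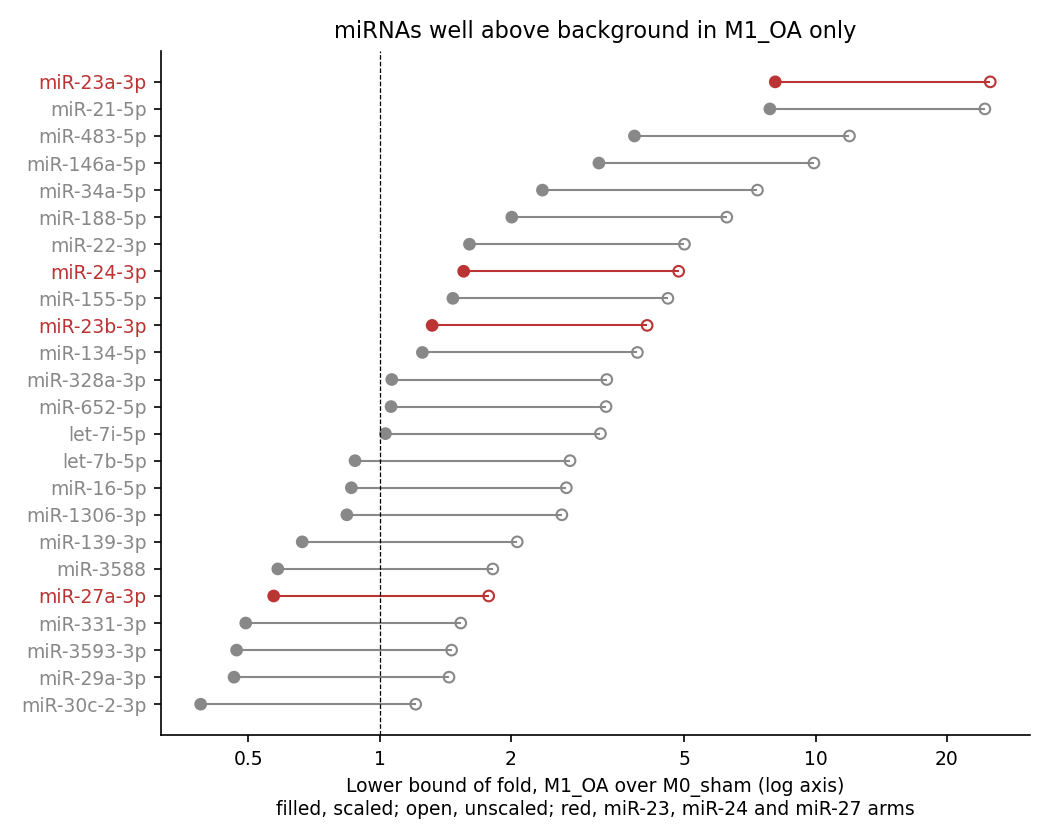
Lower bound of the fold, M1_OA over M0_sham, on a log axis, for the 24 miRNAs detected on both M1_OA arrays but not in M0_sham; filled points are scaled, open points unscaled, and red marks the miR-23, miR-24 and miR-27 arms. The bound of miR-23a-3p is 8.08 scaled and 25.1 unscaled. That of miR-27a-3p passes 1 without scaling only, where the detection limits leave it no other outcome. The order is the same on both scales and largely that of the probes' M1_OA brightness, so it ranks no change.

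Another background correction, normexp, was run with an offset of 50 added to every spot. With it the direction turned for miR-27a-3p (-0.79), miR-24-3p (-0.37) and miR-23b-3p (-0.51) and stayed for miR-23a-3p (0.82). Under it the median of all 758 miRNAs shifted by -1.11, and relative to that shift these arms stood at 0.32, 0.74, 0.60 and 1.93 in the same order. The undetected passengers miR-24-1-5p and miR-24-2-5p shifted by -1.14 each.

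**Figure D4:**
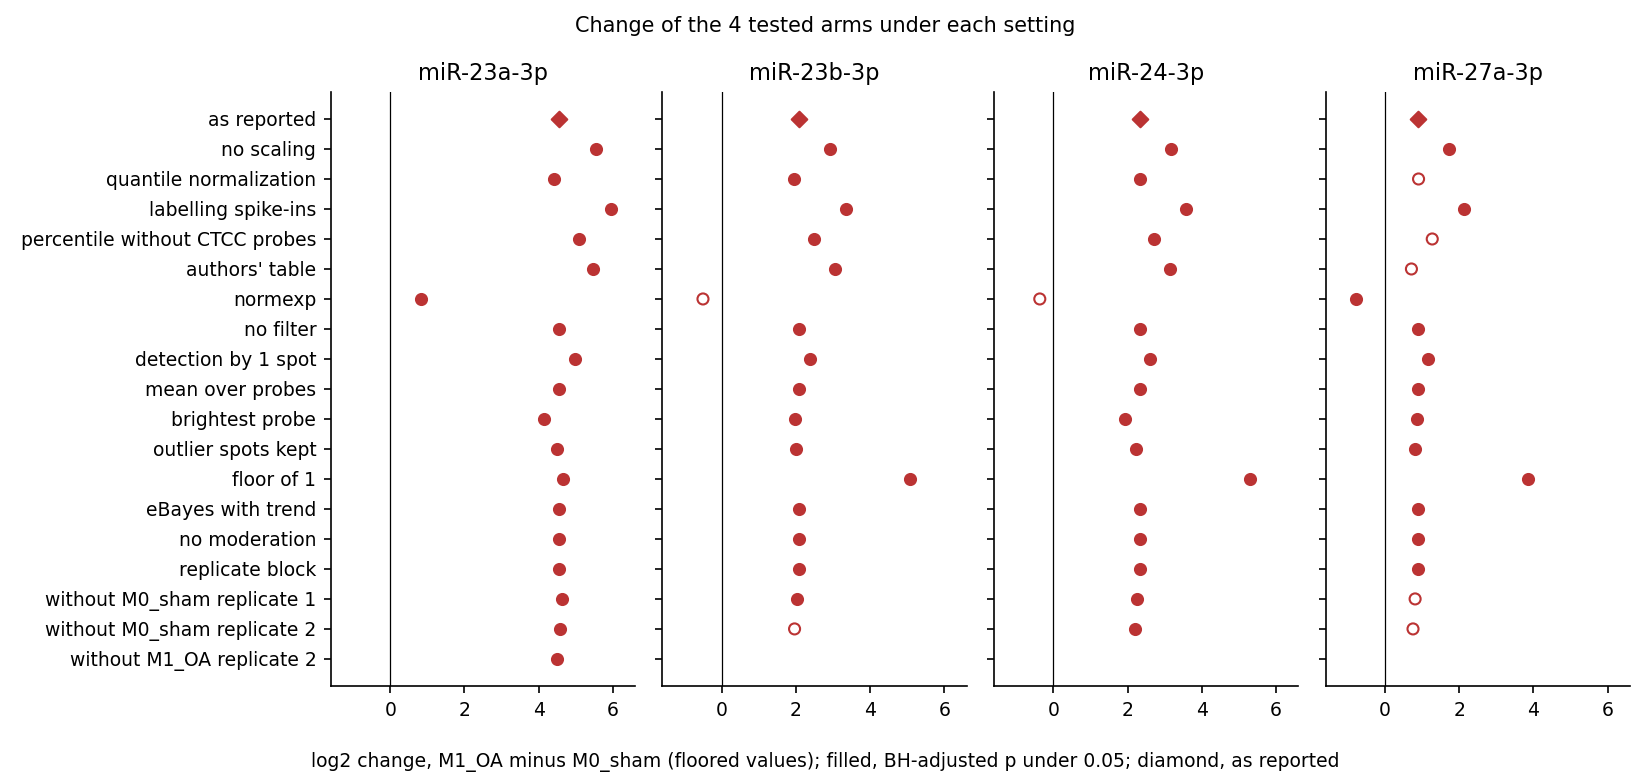
log2 change of the 4 tested arms, M1_OA minus M0_sham, under each way of processing; the diamond is the value as reported, and filled points have an adjusted p under 0.05. miR-23a-3p stays above 0 and passes throughout, miR-27a-3p passes under some settings only, and normexp puts the other 3 arms below 0.

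The clusters were compared within each array, as log2 of miR-23a-3p minus log2 of miR-23b-3p. This difference was 0.30 and 0 on the M0_sham arrays, where miR-23b-3p and once miR-23a-3p lay at the floor, and 2.56 and 2.67 on the M1_OA arrays. Its change was 2.46 (exact permutation test over arrays, two-sided, p = 0.333, the smallest that 2 against 2 arrays allow). With a floor of 1 it was -0.40, so whether the 2 clusters' leading arms changed by unequal amounts was not resolved by these arrays.

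The profiles most like those of the arms were found by the Euclidean distance between log2 values over the 4 arrays, each centred on its own mean, among the 40 other tested miRNAs. Nearest to miR-23a-3p was miR-21-5p, at a distance of 0.28 beside a median of 3.96, followed by miR-146a-5p at 1.24 and miR-34a-5p at 1.64. miR-23b-3p was nearest to miR-24-3p, miR-155-5p and miR-22-3p, all at 0.28 beside a median of 1.70. miR-24-3p was nearest to miR-155-5p (0.12), miR-22-3p (0.13) and miR-483-5p (0.27), beside a median of 1.89. miR-27a-3p was nearest to miR-331-3p (0.25), miR-29a-3p (0.30) and miR-139-3p (0.34), beside a median of 1.39. Profiles at the floor in M0_sham are alike in that group by construction. Of 13 miRNAs listed as responsive to LPS and NF-κB, 3 were tested and 3 were called higher, where 53.7% of all tested miRNAs were. They were miR-155-5p, miR-146a-5p and miR-21-5p. Like the 4 arms, these 3 were detected in M1_OA only. They lay at the floor on both M0_sham arrays and could not come out lower. Of 5 listed macrophage and myeloid miRNAs 2 were tested, of which miR-16-5p, likewise detected in M1_OA only, was called higher and miR-223-3p was not, a share near that of all tested miRNAs.

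The authors' deposited log2 table holds a value above its floor of -3.32 for the same 4 arms on every array, and lists the other 3 at the floor throughout. There miR-23a-3p stood at -0.24 and 0.58 in M0_sham and 6.05 and 5.24 in M1_OA. miR-23b-3p stood at -1.04 and -1.84 against 2.10 and 1.14, and miR-24-3p at -0.92 and -1.01 against 2.18 on both M1_OA arrays. In these 3 arms the groups do not overlap in the authors' table. The share of all miRNAs with such groups is not given here, so this does not set the arms apart. By another measure, limma on the authors' values called 18 of the 41 tested miRNAs higher in M1_OA and 4 lower. miR-27a-3p stood at -1.06 and -1.85 against -0.43 and -1.06, so its groups meet at the same value. Tested in limma on the authors' values, miR-27a-3p did not pass (log2 0.71, adjusted p = 0.251).

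The scanner files also carry a total signal per miRNA, and for miR-27a-3p this total is not its own. On the M1_OA arrays it read 56.8 and 42.5, while the totals of the arm's own probes sum to 17.1 and 10.8, a ratio of 3.32 and 3.92. Within 0.01 units the deposited total equals the arm's brighter probe total, 14.3 and 10.1, plus the whole total of miR-24-3p, 42.6 and 32.4. For the other 3 detected arms the totals on the M1_OA arrays equal the sums of their own probes. On M0_sham replicate 1 the total of miR-23a-3p read 14.8, which is 2.52 from its own probe and 12.2, the total of miR-223-3p. The scanner software's flag marks miR-23a-3p as detected on that array, where 1 of its 16 spots was well above background.

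**Figure D5:**
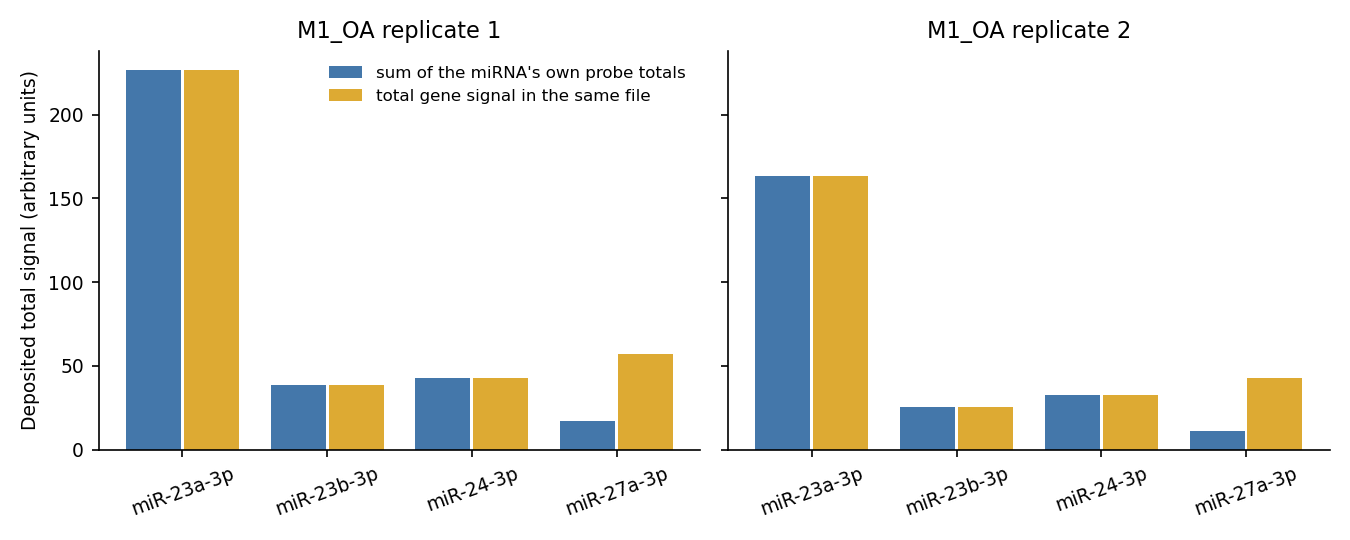
Sum of each arm's own probe totals (blue) and the total signal deposited for the same miRNA (yellow) on the M1_OA arrays, in arbitrary units. The bars match for the other 3 arms, while the deposited total of miR-27a-3p, 56.8 and 42.5, exceeds its own probes' 17.1 and 10.8.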

How the data were processed

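Spot intensity came from the deposited scanner files, which per the file headers came from Agilent's Feature Extraction software (version 10.7.1.1), with background subtracted and no scaling between arrays. Flags of 0 or 1 for spots (well above background, positive and significant, population outlier) and total intensities per probe and miRNA are also as deposited. The log2 table is the authors', and its normalization between arrays is not given in the sources used here. The labels' protocols give 0.2 µg RNA and a kit for cRNA, and whether that kit was used for these miRNA arrays is unclear.

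Outlier spots (8.55% to 11.0% of 12128) were left out, spots averaged and probes summed. The 41 tested miRNAs were fitted with limma 3.58.1 (lmFit, default eBayes, two-sided, Benjamini-Hochberg over the 41) in R 4.3.3, without a replicate block, and the fit was tested on simulated data. No spot was saturated (0). Bounds use means of log2 values. Precision is limited by 2 arrays a group. The 7 arms, the miRNA lists, and the rule that names the 3 nearest profiles were chosen with earlier results of these data known. Alternatives covered scaling, background correction, filter, detection flag, probe summary, outlier spots, floor, variance prior, replicate block, each array left out and the threshold. The labels give M0 or M1, surgery and replicate number for each array. Plots used matplotlib 3.10.9.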

Additional observations from a re-analysis of the deposited data

How the results depend on the processing

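The count of 4 arms called higher stayed at 3 or 4 under 16 of 18 alternatives. With normexp 1 arm was called higher and 1 lower, and without M0_sham replicate 1 or 2 the count was 3 or 2. miR-23a-3p passed as higher under all 18 alternatives that gave it a test (log2 0.82 to 5.95, adjusted p up to 0.0313). Normexp reversed miR-23b-3p (-0.51, adjusted p = 0.0671), miR-24-3p (-0.37, adjusted p = 0.183) and miR-27a-3p (-0.79, adjusted p = 0.00433, lower), with the median of all miRNAs at -1.11. miR-27a-3p did not pass with quantile normalization (0.90, adjusted p = 0.0984), with a percentile over miRNAs without CTCC in a probe (1.27, adjusted p = 0.157), with the authors' table (0.71, adjusted p = 0.251), or without M0_sham replicate 1 (0.81, adjusted p = 0.0867) or 2 (0.75, adjusted p = 0.292). miR-23b-3p did not pass without M0_sham replicate 2 (1.96, adjusted p = 0.0804). All p-values are from limma, and the cause of these changes was not tested.

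With the positive and significant flag 1 arm, miR-23a-3p, was detected on both M0_sham arrays in place of 0, and the count of 4 in M1_OA held under all 6 alternatives (4 to 4 without either array). The change of miR-23a-3p minus that of miR-23b-3p turned to -0.40 with a floor of 1 and ran from 2.41 to 2.67 without single arrays. Leaving out single arrays gave log2 changes of 4.51 to 4.63 for miR-23a-3p, 1.96 to 2.02 for miR-23b-3p, 2.20 to 2.26 for miR-24-3p and 0.75 to 0.81 for miR-27a-3p. It gave bounds of 5.83 to 15.4, 0.953 to 2.52, 1.13 to 2.98 and 0.413 to 1.09, the lowest without M0_sham replicate 1 and the highest without replicate 2. Unscaled bounds were 25.1, 4.11, 4.85 and 1.78, and brightest-probe bounds of the first 3 were 7.39, 1.22 and 1.19.

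Over all tested miRNAs, 22 were called higher and 4 lower. The split was 32 and 0 without scaling, 34 and 0 by spike-ins, 21 and 0 by the percentile without CTCC, 16 and 3 by quantiles, 4 and 25 with normexp, 13 and 9 without M0_sham replicate 2, 11 and 3 without a filter. Without M1_OA replicate 1 the 4 arms, and without replicate 2 all but miR-23a-3p, had no residual spread and no test. A filter on all 4 arrays left none of the arms, and the percentile over all 758 miRNAs lay below 0 and could not be used. With the replicate block all 4 calls held (limma, adjusted p = 0.0208 for miR-27a-3p, 19 higher and 7 lower overall). Same-numbered arrays deviated together over the tested miRNAs (correlation 0.308 across miRNAs), but with 2 pairs this does not show that the numbers pair the arrays. Signals under 7.78 to 26.7, by array, are not resolved.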

Other observations

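The pattern seen in the total signal of miR-27a-3p holds for other miRNAs on these arrays. The scanner software listed 37, 22, 60 and 56 miRNAs as detected on M0_sham replicates 1 and 2 and M1_OA replicates 1 and 2. For 26, 16, 39 and 34 of them the deposited total was matched by the miRNA's own probes within 0.01 units. For the other 11, 6, 21 and 22 it was matched only by own probes plus the whole total of another miRNA. No detected miRNA fell outside these patterns (0 on all 4 arrays).

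The columns of the authors' log2 table hold 67, 67, 67 and 68 entries above the floor in the same order of arrays, and 98.5%, 98.5%, 97.0% and 100% of these values recur exactly in another column. miR-24-3p has the same 2.18 on both M1_OA arrays, and miR-27a-3p the same -1.06 on M0_sham replicate 1 and M1_OA replicate 2. The table lists 25, 41, 0 and 8 miRNAs above its floor that the scanner software did not mark as detected on that array, among them miR-27a-3p, miR-24-3p and miR-23b-3p on both M0_sham arrays and miR-23a-3p on M0_sham replicate 2.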
